A study of Bos taurus with 2 samples.

Results

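A total of 4077 windows of 1 kb on chromosomes 1 to 29 of the cattle genome were rich in CpG sites and methylated in both bone samples, Bone_1 and Bone_2. They were chosen from 20985 CpG-dense autosomal windows, which held at least 60 CpG sites and no fewer than 50 calls per sample, as those with a level of at least 75% in Bone_1 and at least 55% in Bone_2. They made up 19.4% of the CpG-dense windows and 0.164% of all 2489384 autosomal windows. A further 14482 CpG-dense windows (69.01%) were under 20% in both samples, here called unmethylated, and the other 2426 (11.6%) were in neither class. Of these 2426, 191 passed the threshold of Bone_1 only and 269 that of Bone_2 only. Another 409 windows with at least 60 CpG sites had too few calls to be classed.

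The data came from whole-genome bisulfite sequencing (WGBS) of 2 bone samples, labelled as female Holstein cattle, with no treatment and no age given. They belong to a WGBS collection across cattle tissues, used to relate promoter methylation to histone marks carried over from human. Bisulfite converts unmethylated cytosines only, so every read that covers a CpG calls it methylated or not. The labels do not say whether the samples came from different animals, and the names of the deposited data can be read as 2 libraries of 1 bone sample, so an SD between the samples may be technical. The series holds no RNA data, so the label bone was not checked against expressed markers. With a single group of 2 samples, no comparison between conditions was possible.

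In mammals, most CpG sites are methylated and have been lost over evolution, because methylated cytosine mutates readily to thymine. Stretches that kept many CpG sites, the CpG islands, are mostly unmethylated in the germ line and mark the starts of genes. A minority of CpG islands is methylated in somatic tissues. These lie mainly inside genes, or at the starts of genes that are active in the germ line and silenced elsewhere.

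The level of a window is the percentage of its calls that were methylated, summed over its CpG sites. The median level of the methylated windows was 90.2% in Bone_1 and 76.5% in Bone_2 (83.3% ± 9.68, SD between samples, n = 2). In Bone_1 the windows ran from 75.05 to 98.2%, and in Bone_2 from 55 to 98.1%. Summed over all 4077 windows, the methylated share of calls was 89.22% for Bone_1 (95% Wilson interval 89.20 to 89.24%) and 75.43% for Bone_2 (75.37 to 75.49%). These intervals, like the other Wilson intervals below, cover counting error alone and take every call as independent. Calls on a read are not independent, so the intervals are too narrow. The reads also carry no molecular identifiers. The unmethylated windows had medians of 1.44 and 1.71%. These levels chose the windows and are given as a description.

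**Figure D1:**
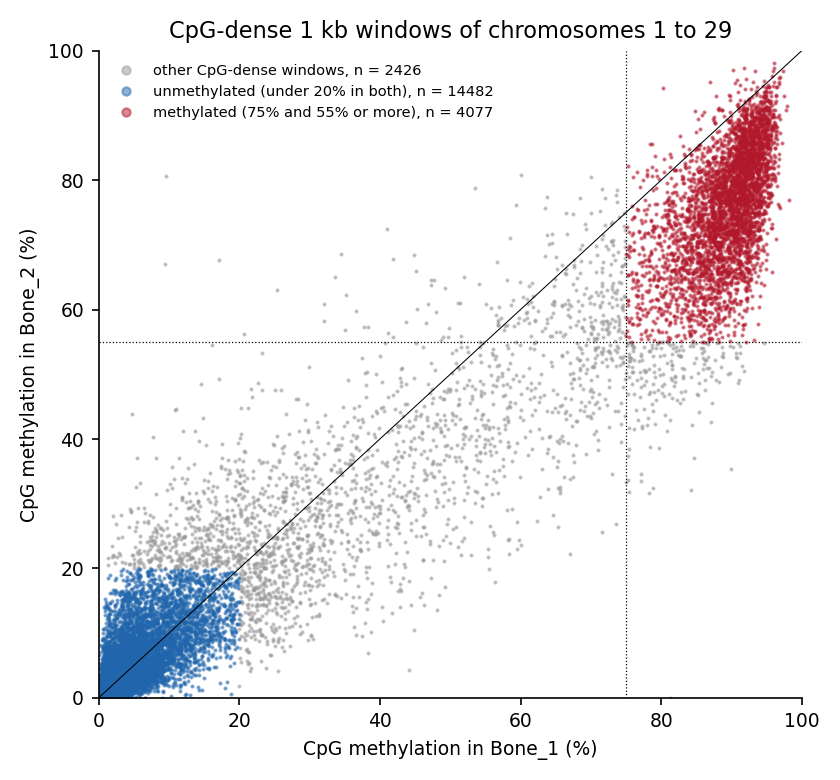
CpG methylation (%) of the 20985 CpG-dense autosomal windows in Bone_1 (x axis) and Bone_2 (y axis), 1 point per window. Red points are the 4077 methylated windows, blue points the 14482 unmethylated ones and grey points the other 2426; dotted lines are the thresholds of 75% and 55%, the solid line marks equal levels, and most red points lie below it.

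Of the methylated windows, 3997 were lower in Bone_2 and 80 (1.962%) were higher, beside 39.9% higher among all CpG-dense windows. The thresholds differ between the samples, so nothing is read from this count. The median difference was 12.7 percentage points, with quartiles of 7.83 and 18.2 points. On the single chromosomes, the median difference ran from 10.7 to 14.9 points. It was 16.9 points over all autosomal windows with no fewer than 20 calls per sample.

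Sequencing depth was unequal at these windows. Over all sequences, the deposited counts held 582241763 calls for Bone_1 and 440334436 for Bone_2. On the autosomes they held 445684877 and 389385549. The methylated windows held 1.12% of the autosomal CpG sites, 2.05% of the autosomal calls of Bone_1 and 0.479% of those of Bone_2. Their median depth was 26.2 calls per CpG site in Bone_1 and 5.38 in Bone_2, against 17.3 and 5.56 in the unmethylated windows. In Bone_1, methylated windows were deeper than unmethylated ones on 29 of 29 chromosomes, and in Bone_2 on 13 of 29. The part of this depth in the levels was not tested. The 95% Wilson interval of a window reached 1.39 percentage points to either side in Bone_1 and 4.21 in Bone_2 (medians).

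Windows close to a threshold were within counting error of it. The lower limit of the interval reached below 75% in 75 of the 4077 windows (1.84%) in Bone_1, and below 55% in 198 (4.86%) in Bone_2. As calls on a read are not independent, the intervals are too narrow and these counts too low. Just inside the threshold of Bone_1 were windows in FMNL1 and GMDS, at 75.05 and 75.06%, and a window without a gene at 75.2%. Just outside it were 3 windows at 74.9%. Just inside that of Bone_2 were 3 windows at 55%, in EFCAB6, in SLC27A5 and outside genes, and just outside it were 3 at 54.98, 54.94 and 54.92%.

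The deposited counts carry some sequence. Each CpG cytosine is listed with the base that follows its CpG, so both strands together give the base on either side of every CpG site. The partial sequences below were built from these bases, with CpG sites in capitals and n for bases that the counts do not give. Coordinates are those of the counts, for which the labels name ARS-UCD1.2 and the paper UMD3.1.1, and sequences read 5′ to 3′ on the top strand. In the check described below, the coordinates matched gene positions of ARS-UCD2.0 in 265 of 266 segments. Gene positions of UMD3.1.1 were not compared. The first 3 are stretches of the windows with the most evenly spaced CpG sites, except that the window in FAM193A, which ranked between those of PLCL2 and HDHD5, was left out because only 33.3% of the bases of its stretch are known. They are shown because the repeated pattern of the CpG sites can be read from them. Each is 120 bases long.
PLCL2 window, 1:154025446-154025565: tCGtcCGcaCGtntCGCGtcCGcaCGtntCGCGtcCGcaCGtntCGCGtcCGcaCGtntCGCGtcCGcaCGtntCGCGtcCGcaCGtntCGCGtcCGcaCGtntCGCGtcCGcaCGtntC
HDHD5 window, 5:108841533-108841652: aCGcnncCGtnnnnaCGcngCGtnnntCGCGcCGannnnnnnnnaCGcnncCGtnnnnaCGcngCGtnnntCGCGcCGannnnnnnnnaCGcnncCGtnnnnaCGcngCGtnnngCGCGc
window without a gene, 2:108701600-108701719: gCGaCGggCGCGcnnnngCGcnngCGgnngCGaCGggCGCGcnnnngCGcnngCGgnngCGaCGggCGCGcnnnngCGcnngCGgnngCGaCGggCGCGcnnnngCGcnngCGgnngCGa
The PLCL2 stretch held 31 CpG sites, with 112 of its 120 bases known, and repeated every 15 bp with the unit CGcaCGtntCGCGtc. The HDHD5 stretch held 20 CpG sites and the stretch without a gene held 25, the latter repeating every 29 bp.

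Even spacing was measured as the largest share of a window's CpG sites that had another site at one same distance of 10 to 400 bp downstream. Positions do not depend on the calls, so this measure is independent of the levels that chose the windows. At a share of at least 50%, 73 of the 4077 methylated windows were evenly spaced (1.79%), beside 0.419% of all CpG-dense windows. These 73 were most of the 88 evenly spaced CpG-dense windows on the autosomes, and 3 of the 88 were unmethylated. Even spacing was found in 6.81% of the 382 methylated windows outside genes and in 1.25% of the 3429 inside coding genes away from their boundaries. The same split is not given for all CpG-dense windows, so it cannot be called particular to the methylated ones. The window over PLCL2, a gene for a phospholipase C-like protein, had the highest share, 94.9%. It stood at 98.2% of 276 calls in Bone_1 and 76.9% of 65 calls in Bone_2 (95% Wilson interval 65.4 to 85.5%). FAM193A held a window with 92.9% of its sites spaced by 55 bp, at 87.7% and 88.8%. In HDHD5, 92.6% of the sites of the window above had a partner 132 bp downstream, at 96.2% and 80.1%, and the next window had 83.5% at 44 bp, a distance that fits 3 times into 132. Among the 10 most evenly spaced windows, levels in Bone_2 ran from 55.3% in a window at a boundary of MRGPRX2, a receptor gene, to 90.2% in the second HDHD5 window. Reads from repeats can be placed on more than one copy, so single values there are uncertain.

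Methylated windows were placed relative to genes by the RefSeq gene table of ARS-UCD2.0. Its positions were checked against the counts, since the builds named differ. The check used windows with at least 20 CpG sites and at least 20 calls that were under 20% in Bone_1. In 265 of 266 segments of 10 Mb, these were most frequent exactly at the listed gene boundaries. Shifts of up to 60 kb to either side were compared. The other segment held 5 boundaries. The table gives no strand, so a boundary here is either the start or the end of a gene.

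A boundary of a protein-coding gene lay in 214 of the 4077 methylated windows (5.25%), beside 38.7% of all CpG-dense windows and 51.2% of the unmethylated ones. The share was lower than in the unmethylated windows on 29 of 29 chromosomes. With boundaries up to 1000 bp away counted too, the shares were 17.5, 60.4 and 75.5%, respectively. A protein-coding gene was overlapped by 3643 methylated windows (89.4%), beside 85.4% of all CpG-dense windows and 85.6% of the unmethylated ones. A gene of any kind was overlapped by 3695 (90.6%), beside 87.6 and 87.9%, respectively. Both shares of the methylated windows were thus near those of all CpG-dense windows. Median levels were 90.6 and 77.1% inside coding genes, 89.3 and 75.1% at boundaries, and 87.0 and 71.8% outside any gene. Bone_1 comes first in each pair of levels.

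Protein-coding genes with a methylated window numbered 1718 of 20280 (8.47%). A single such window was found in 1057 of them, and 52 genes held at least 10. A gene needs a CpG-dense window to be among them, as 10935 coding genes had. The median gene length was 28.3 kb with a methylated window and 26.9 kb over the genes with any CpG-dense window. An unmethylated CpG-dense window lay at a boundary of 1021 of the 1718 genes (59.4%), a lower share than the 73.4% of all genes with a CpG-dense window. A gene whose only CpG-dense window was methylated could not hold an unmethylated one, which lowers the first share by the choice of genes.

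The genes with the most methylated windows were named after the counts were seen. MAD1L1, a component of the mitotic spindle checkpoint, held 37 methylated windows among its 39 CpG-dense windows, at summed levels of 91.5% in Bone_1 and 79.2% in Bone_2. The 1 unmethylated window of MAD1L1 stood at 0.588 and 0.197% at its boundary. PTPRN2, a receptor-type phosphatase of secretory vesicles, also held 37, at 86.0 and 69.9%, and 9 of its 54 CpG-dense windows were unmethylated, at most 13.4% in Bone_1. EEFSEC, the elongation factor for selenocysteine, held 32 of 38 at 89.6 and 73.3%. IQSEC1 followed with 22 and TBC1D22A with 21. INPP5A, an inositol phosphatase, held 20 at 88.6 and 73.0%. PI4KA, a phosphatidylinositol kinase, had 19 of 20 CpG-dense windows methylated, at 92.9 and 83.6%, and its 1 other was unmethylated. BCR and PLXNA1, a semaphorin receptor, held 14 each. In every one of the 20 genes with the most methylated windows, the summed level of those windows was lower in Bone_2, as the thresholds favour.

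The levels of the windows of both genes that were not CpG-dense are given beside those of their methylated windows as a description. In MAD1L1, 200 windows that were not CpG-dense and had enough calls had medians of 89.9% in Bone_1 and 72.4% in Bone_2, against 91.5 and 79.5% in the methylated CpG-dense windows. In PTPRN2, the corresponding medians were 81.1 and 62.8% in 541 windows that were not CpG-dense and 86.2 and 71.1% in the methylated ones. The thresholds raise the latter by their choice.

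**Figure D2:**
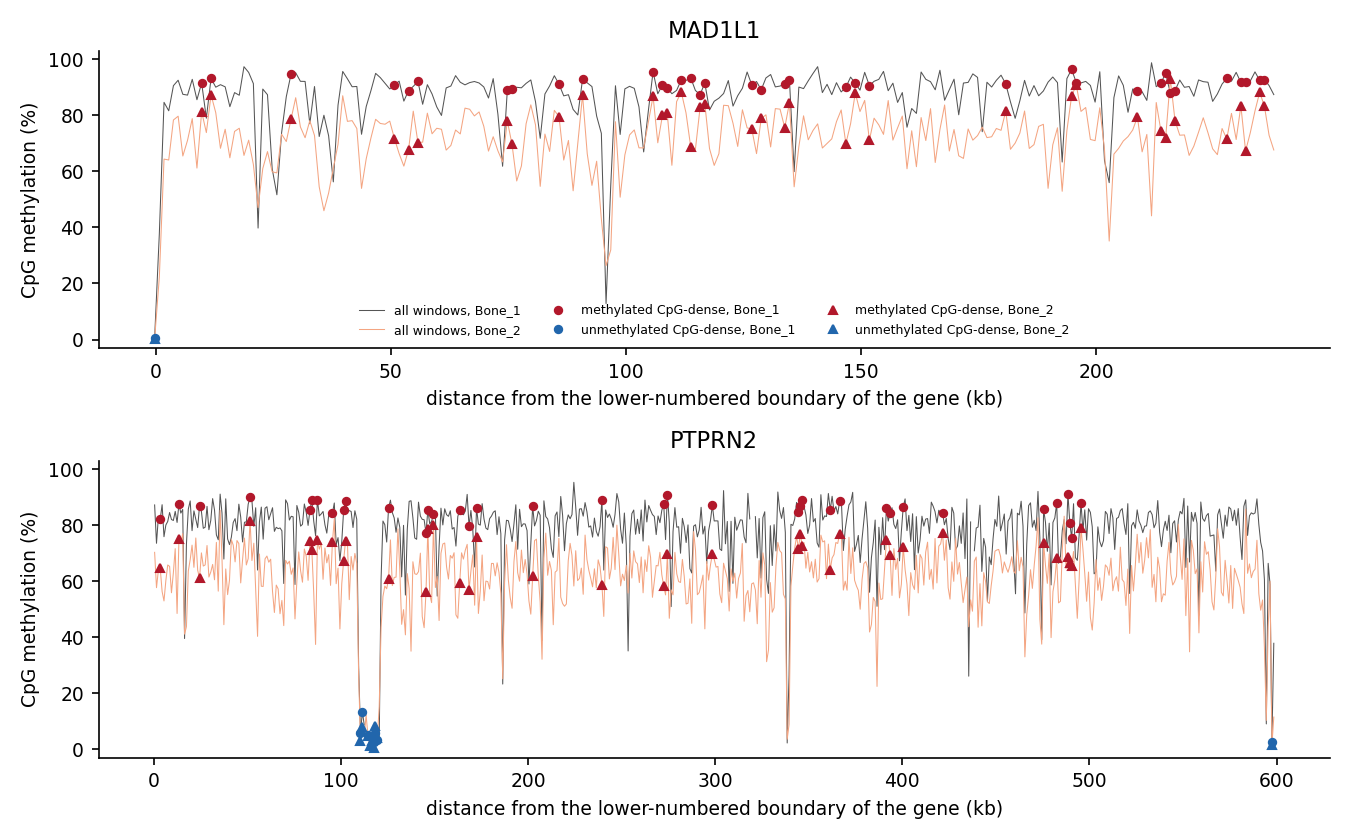
CpG methylation (%) of every 1 kb window with at least 20 calls over MAD1L1 and PTPRN2, against the distance from the lower-numbered boundary of each gene (kb), in Bone_1 (dark line, circles) and Bone_2 (light line, triangles). Red symbols are methylated CpG-dense windows, 37 in each gene, and blue symbols unmethylated ones, 1 in MAD1L1 and 9 in PTPRN2.

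Methylated windows were mostly alone. They formed 3342 runs of adjoining windows, of which 2803 were a single window, and 35 runs held at least 4. The longest run, of 10 windows with 705 CpG sites, lay in PKD1, the polycystin gene mutated in polycystic kidney disease, at 25:1638001-1648000. Its summed level was 89.98% in Bone_1 and 78.6% in Bone_2, and its single windows ran from 79.05 to 93.9% and from 65.1 to 87.4%. Runs of 6 windows lay over HTT, the huntingtin gene, with its neighbour MSANTD1 (91.1 and 78.3%), over TFDP1, a partner of E2F factors (93.0 and 85.8%), and over GNAZ, a G protein subunit, with RSPH14 (87.2 and 68.8%). A run of 5 in FGFR3, a growth factor receptor that restrains bone growth, stood at 86.5 and 72.0%. It was the first by position of the 8 runs of that length.

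The surroundings of methylated windows were themselves methylated and richer in CpG sites than those of unmethylated windows. In adjoining windows, the medians were 87.6% in Bone_1 and 71.6 and 71.4% in Bone_2 on the lower and higher side. At 10 kb they were 84.1 and 66.1% on the lower side. Around unmethylated windows, the adjoining medians were 17.4 and 19.6%, and those at 3 kb on the lower side were 79.9 and 61.4%. The median number of CpG sites was 43 next to a methylated window and 31 at 10 kb, against 31 and 12 around unmethylated windows. Leaving out neighbours that were themselves methylated CpG-dense windows, the medians on the lower side were 86.7 and 69.7%. The nearest unmethylated CpG-dense window was 22 kb away in the median and adjoined 38 of the 4077 windows (0.932%). The same distance was not measured for all CpG-dense or all autosomal windows, so nothing is read from these values.

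**Figure D3:**
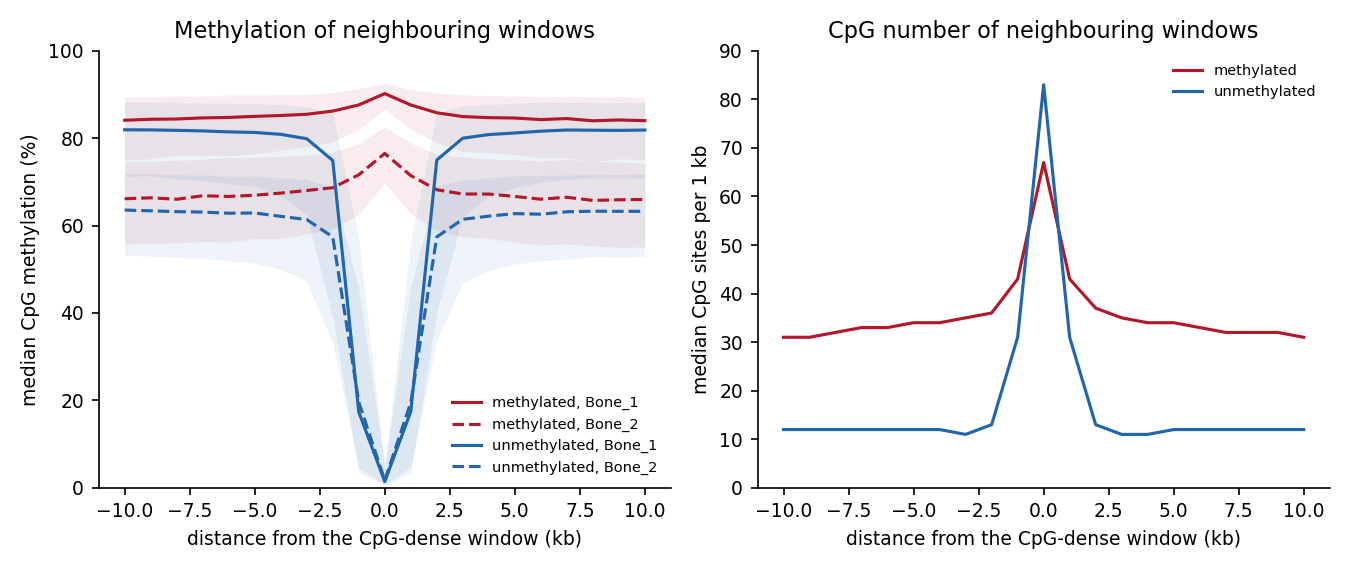
Median CpG methylation (%, left) and median number of CpG sites per 1 kb window (right) against distance (kb) from methylated (red) and unmethylated (blue) CpG-dense windows, with solid lines for Bone_1, dashed lines for Bone_2 and shading from the lower to the upper quartile. In Bone_1 the red line runs from 90.2% at the window to 84.1% at 10 kb on the lower side, and the blue line from 1.44 to 81.9%.

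Methylated windows crowded near the distal ends of the chromosomes, the ends away from the centromere in cattle, whose autosomes have the centromere at the end where numbering begins. Within 5 Mb of the last CpG site lay 2648 of them (64.95%), beside 26.1% of all CpG-dense windows, 13.2% of the unmethylated ones and 5.83% of all autosomal windows. The share was higher than for unmethylated windows on 29 of 29 chromosomes. Within 5 Mb of the proximal end lay 7.02% of the methylated and 6.05% of the unmethylated windows. The median distance from the distal end was 2.59 Mb for methylated and 31.7 Mb for unmethylated windows. By distance from the nearer of both ends, median levels were 89.8 and 76.2% under 0.5 Mb and 90.7 and 76.4% beyond 20 Mb, within the range that the thresholds set.

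**Figure D4:**
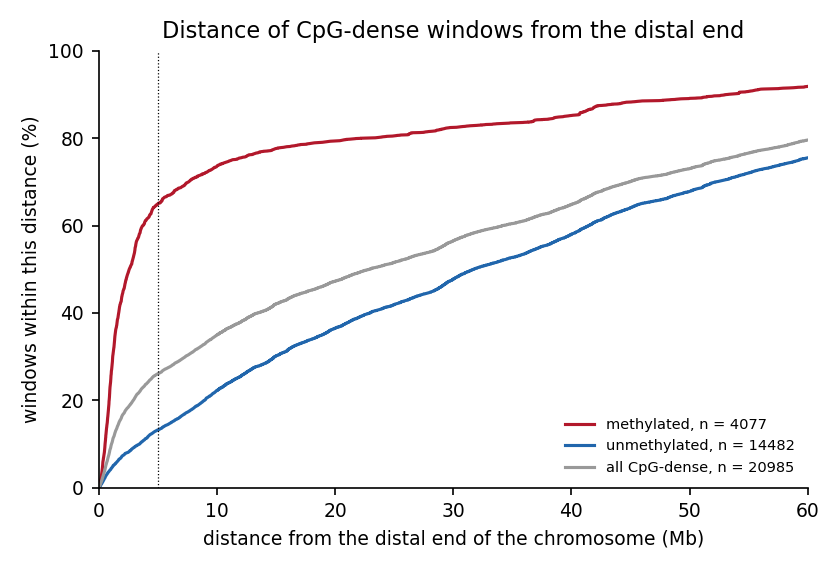
Share of windows (%) that lie within a given distance (Mb) of the distal end of their chromosome, for methylated (red), unmethylated (blue) and all (grey) CpG-dense autosomal windows. At the dotted line, 5 Mb, the red curve stands at 64.95%, the grey at 26.1% and the blue at 13.2%.

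Chromosomes differed widely in their number of methylated windows. On chromosome 25, 376 of 1064 CpG-dense windows were methylated (35.3%), on chromosome 17 it was 34.7% and on chromosome 22 it was 31.0%. Chromosome 28 held 7 of 224 (3.13%), and chromosomes 13 and 10 held 7.81 and 8.04%. The median level per chromosome, bounded below by the thresholds, ran from 87.1 to 91.8% in Bone_1 and from 73.3 to 80.4% in Bone_2.

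The windows with the most CpG sites were spread over several chromosomes. The highest number, 162 sites, was in a window of ZNF316, a zinc finger gene, at 25:38469001-38470000, with 96.0% of 6325 calls methylated in Bone_1 and 85.9% of 980 in Bone_2. CASZ1, a zinc finger transcription factor, followed with 154 sites at 85.1 and 59.1%. CHST13, a chondroitin sulfotransferase gene, had 149 sites at 95.4 and 94.3%. C1QTNF4 had 146 sites at 95.7 and 88.3%. The remaining 6 of the first 10 had 140 to 142 sites, and the lowest level among them was 76.9% of 619 calls in Bone_2, in ZFPM1, a cofactor of GATA factors.

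Within the range that the thresholds allow, levels are given by number of CpG sites as a description. The median was 89.5% in Bone_1 and 74.7% in Bone_2 for windows with 60 to 64 sites, and 92.7 and 80.2% for those with at least 100. The median difference between the samples was 13.6 and 11.1 points, respectively. Between the classes the order was the other way, with a median of 67 CpG sites in methylated and 83 in unmethylated windows. Depth moved along with CpG number, from 24.8 to 34.8 calls per site in Bone_1 and from 5.81 to 4.40 in Bone_2, and its part in these levels was not tested.

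The 10 windows with the highest lower limit in Bone_2 were chosen for a high level in that sample. SLC12A7, a potassium-chloride cotransporter gene, led with 96.1% of 2006 calls in Bone_1 and 98.1% of 310 in Bone_2 (95% Wilson interval 95.8 to 99.1%). ANKRD9 stood at 96.1 and 97.3%, and SRRM2, a splicing factor gene, at 97.3 and 96.9%. The gap was wider in PLXNA1, at 90.3% in Bone_1 (95% Wilson interval 88.9 to 91.5%) and 97.1% in Bone_2 (94.7 to 98.4%), and in ZNF444, at 91.7 and 97.4%. LATS2, a kinase of the Hippo pathway, had 93.3 and 96.9%. IRS2, an adaptor of the insulin receptor, had 96.1 and 95.2%.

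Gene lists were counted by their CpG-dense windows. Over all protein-coding genes, 3789 of 19367 gene-window overlaps were methylated (19.6%). A window over several genes counts once for each of them. These are counts beside the background and no test was made on a list.

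Germ cell genes, many of which are known to be silenced in somatic tissues by methylation of their starts, had 12 of 22 CpG-dense windows methylated (54.5%), in 11 of the 48 genes found, and 5 unmethylated. DAZL, an RNA-binding protein needed for germ cells, stood at 94.1% in Bone_1 and 84.9% in Bone_2. TDRD9, a helicase of the piRNA pathway, had 2 methylated windows at 89.8 and 73.5%. TERB1, which tethers meiotic telomeres, stood at 95.8 and 80.9%. SOHLH1, a transcription factor of early germ cells, stood at 86.8 and 70.9%. In 5 genes the methylated window lay over a boundary. These were PLD6 (93.3 and 65.8%), MAJIN (92.5 and 72.4%), MOV10L1 (91.7 and 76.9%, shared with its neighbour MLC1), GPAT2 (86.9 and 59.6%) and RNF17 (79.7 and 56.6%). An unmethylated CpG-dense window was found at a boundary of 3 germ cell genes.

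Ribosomal protein genes, which are active in all cells, showed the opposite arrangement, with 0 of 45 CpG-dense windows methylated and 45 unmethylated. Homeobox and related transcription factor genes had 1 of 407 methylated, in HOXB3 at 81.5 and 66.0%, and 359 unmethylated. Clustered protocadherins had 0 of 32 methylated and 5 unmethylated, so most of their windows were in neither class. Collagen genes had 28 of 55 methylated and 24 unmethylated. COL5A1, a fibrillar collagen, held 13 at 87.2 and 70.8%, and COL4A2, a basement membrane collagen, held 8 at 87.45 and 70.1%. Mucin genes had 18 of 26 methylated and 2 unmethylated, with the 18 all in MUC2, MUC5AC and MUC5B, which encode gel-forming mucins with repeated domains, and MUC2 held 10 of them at 85.5 and 67.3%.

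Imprinted genes had 10 of 59 windows methylated and 21 unmethylated. PEG3 held 5 of them at 89.3 and 73.1%, and IGF2R held 2 at 93.2 and 82.2%. Of the genes of cell types found in bone, the osteoblast list had 1 of 9 windows methylated, in RUNX2, the master regulator of osteoblasts, at 91.9 and 73.3%, and its 8 other windows, 4 of them in RUNX2, were unmethylated. The white blood cell list had 1 of 2, in SPI1, a myeloid transcription factor, at 84% and 81.98%. The red blood cell list had 0 of 5 methylated and 4 unmethylated, and the cartilage list 0 of 12 and 9. These lists rest on few windows.

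**Figure D5:**
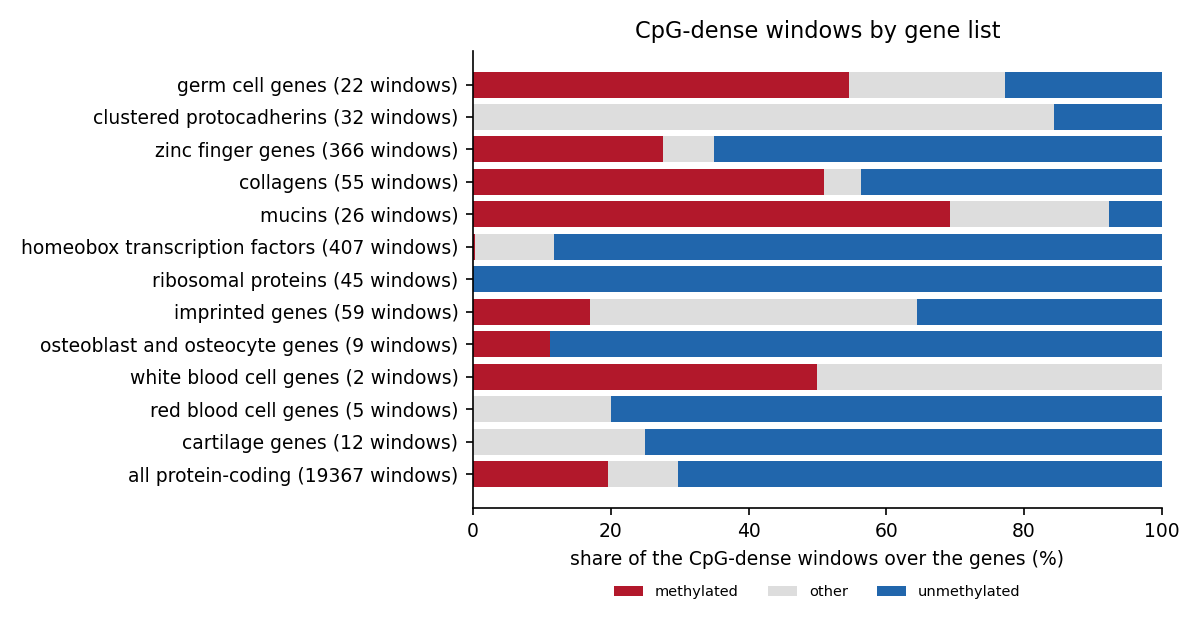
Share (%) of the CpG-dense windows over the genes of each list that were methylated (red), unmethylated (blue) or neither (grey), with the number of windows in brackets. Germ cell genes (54.5% methylated), collagens (50.9%) and mucins (69.2%) show the longest red bars of the lists with over 20 windows, and ribosomal proteins show none.

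Zinc finger genes, a large family of DNA-binding proteins, had 101 of 366 CpG-dense windows methylated (27.6%) in 66 of 331 genes. A further 238 were unmethylated. Some of the methylated windows over these genes shared a spacing of CpG sites, which was noticed after the data were seen. Zinc finger domains follow each other in tandem every 28 codons, that is every 84 bp. The most frequent distance between CpG sites was exactly 84 bp in 29 of the 101 methylated windows over zinc finger genes (28.7%), against 26 of the 3976 methylated windows elsewhere (0.654%). Among unmethylated windows it was 0 of 230 over zinc finger genes and 77 of 14252 elsewhere (0.540%). The 29 windows lay in 26 genes, with medians of 94.1 and 81.7%. The other methylated zinc finger windows had medians of 92.7 and 79.4%. Of the windows elsewhere with this distance, some lay over MZF1, REPIN1 and GLI4, which also encode zinc finger proteins but do not carry the names by which the list was made.

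The clearest of these windows lay in ZNF70, with 95.5% of 6326 calls methylated in Bone_1 and 79.1% in Bone_2. Of its 109 CpG sites, 47.7% had another site 84 bp downstream. The 3 successive units of 84 bases below were picked as those with the most CpG sites that recur at the same place in the next unit, to show this recurrence.
ZNF70 unit a, 17:71215040-71215123: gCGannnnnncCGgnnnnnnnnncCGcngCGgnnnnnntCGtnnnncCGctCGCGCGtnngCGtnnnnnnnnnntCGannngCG
ZNF70 unit b, 17:71215124-71215207: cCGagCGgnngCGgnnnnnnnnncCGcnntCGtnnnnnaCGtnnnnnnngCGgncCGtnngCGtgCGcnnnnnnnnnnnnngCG
ZNF70 unit c, 17:71215208-71215291: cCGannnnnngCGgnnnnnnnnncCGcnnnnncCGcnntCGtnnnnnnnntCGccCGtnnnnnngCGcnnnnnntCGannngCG
The units held 12, 11 and 10 CpG sites, and 14 times a site of unit a or b had one at the same place in the following unit.

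At gene boundaries, methylated windows with named genes numbered 190. With the most CpG sites among them, GDF7, a bone morphogenetic protein family member, had 126 sites at 79.9% in Bone_1 and 62.6% in Bone_2. SNRNP70, a spliceosome component, had 123 sites at 91.9 and 85.0%. KCNG2, a potassium channel subunit, had 118 at 92.4 and 78.4%, and DNAJB8, a chaperone known from testis, had 117 at 94.4 and 76.9%. RNF212, which acts in meiotic crossover, had 89.1 and 74.7%, and HSF5, a heat shock factor of male germ cells, had 95.3 and 91.1%. ADRA2A, an adrenergic receptor, had 78.4 and 60.04%. BHLHA9, a limb development factor, had 91.3 and 61.4%, and KLHL40, a muscle protein gene, had 88.8 and 81.0%. TUBA3E, an alpha tubulin, had 92.8 and 85.7%, but near-identical tubulin copies could share its reads. Over the 20 such windows with the most sites, levels ran from 75.9 to 95.9% in Bone_1 and from 55.3 to 91.1% in Bone_2.

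Single CpG sites are described here, with levels that are high by the choice of their windows. The windows held 291363 CpG sites with a median gap of 9 bp between neighbouring sites. No fewer than 10 calls were made at 92.6% of them in Bone_1 and 10.5% in Bone_2. At these, the median level was 92% and 80%. Levels over 80% were found at 86.1% of them in Bone_1 and at 42.4% in Bone_2, and levels of 20 to 80% at 13.5 and 56.9%. Sites under 20% made up 0.381 and 0.646%. The median in Bone_2 lay on the class edge of 80%, and 19.6% of its sites stood from 80% up to 85%. With few calls per site, levels there are coarse, so the split at 80% is imprecise in Bone_2. Of the 28801 sites that reached 10 calls in both samples, 53 were under 20% in both, 24 were over 80% in Bone_1 and under 20% in Bone_2, and 3 were the reverse.

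Summed levels differed with the bases around a CpG site. With the bases on either side named on whichever strand comes first in the alphabet, GCGC sites had the highest levels in the methylated windows, 92.0% in Bone_1 and 80.2% in Bone_2. ACGT sites had the lowest, 84.3 and 68.9%. CCGC sites were the most frequent, 26.4% of sites at 90.7 and 77.7%, against 32.4% of sites in unmethylated windows. ACGG sites made up 11.6% of sites in methylated windows and 6.58% in unmethylated ones. All 4 contexts with A before the CpG took a larger share of sites in the methylated windows. These levels are summed over sites and windows, with no replicate besides the 2 samples. The 11 windows of extreme depth described below hold 12.6% of the summed calls in Bone_1 and 13.9% in Bone_2. Levels also rose with the CpG number of a window, and the part of depth or CpG number in these values was not tested.

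The strands of a window were compared, although a high summed level limits how far they can differ, so that the choice of windows bears on these counts too. By Fisher's exact test per window with Benjamini-Hochberg adjustment over the 20985 CpG-dense windows, strands differed at an adjusted p under 0.05 in 1326 methylated windows in Bone_1 (32.5%), beside 31.7% of all CpG-dense windows. In Bone_2 it was 1330 (32.6%), beside 18.5%. The top strand was higher in 645 and 689 of these. The share in Bone_1 was thus near that of all CpG-dense windows. Among the unmethylated windows, strands differed in 25.9% in Bone_1 and in 10.7% in Bone_2. In 458 methylated windows (11.2%) the strands differed in both samples, beside 9.5% of all CpG-dense windows. The same strand was higher in 262 of them (57.2%), beside 70.8% of the 1993 such CpG-dense windows. A difference of at least 20 percentage points was found in 28 methylated windows in Bone_1 (0.687%, beside 4.43%) and in 511 in Bone_2 (12.5%, beside 5.43%). The median size of the difference was 2.53 points in Bone_1 and 7.99 in Bone_2, beside 1.54 and 2.03 points over all CpG-dense windows. Depth was lower in Bone_2, and its part in this size was not tested. Calls on a read are not independent and the 2 strands are read from different fragments, so these p-values are too small and the test compares strands within a library only.

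The largest called strand difference in Bone_1 lay in a window without a gene at 10:103287001-103288000, at 83.4% of 356 calls on the top and 25% of 8 on the bottom strand (adjusted p = 0.00259, Fisher's exact test). It was followed by ZNF398, at 36.4% of 376 calls on the top strand and 86.6% of 1621 on the bottom strand (adjusted p = 7.82e-81, Fisher's exact test). MGLL, which encodes a lipase, stood at 79.5% of 1736 calls on the top and 38.0% of 171 on the bottom strand (adjusted p = 6.40e-27, Fisher's exact test). In Bone_2, the largest was in LOC112442728, at 91.1% of 45 calls on the top and 13.3% of 15 on the bottom strand (adjusted p = 1.49e-06, Fisher's exact test). ARHGEF10 stood at 92.6% of 202 calls on the top and 14.8% of 81 on the bottom strand (adjusted p = 1.49e-34, Fisher's exact test). AHNAK2 had 75% of 72 calls on the top and 0 of 8 on the bottom strand (adjusted p = 0.000706, Fisher's exact test), where 0 of 8 calls allows a share of up to 37.5%. In these 6 windows the strand with the lower level had fewer calls than the other. The thresholds on the summed level force this at such strand levels, so nothing is read from it.

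Few methylated windows had extreme depth. In 11 of the 4077, calls per site were over 10 times the median of the methylated windows in at least 1 sample, and these 11 took 12.6% of the calls of all methylated windows in Bone_1 and 13.9% in Bone_2. The deepest, at 21:33025001-33026000 outside any listed gene, held 465416 and 107803 calls, at 86.0 and 71.6%. Another, at 21:33002001-33003000, held 304401 and 55910 calls at 86.7 and 72.2%. Adjoining windows over LOC112446467 near the end of chromosome 4 held up to 96422 calls in Bone_1. A window over LOC112444312 on chromosome 25 held 58143 calls in Bone_1 and 418 in Bone_2. The part of such depth in the levels of these windows was not tested.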

How the data were processed

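WGBS of 2 bone samples was analysed. Per the labels, the authors used Trim Galore (0.4.5), Bowtie2 and Bismark (0.19.0) with ARS-UCD1.2; the paper names UMD3.1.1 and other versions, and the files name no build. The deposited counts are whole numbers of methylated and unmethylated calls per CpG cytosine, from 150 bp paired-end reads after deduplication. They were not normalised, so values at low depth are imprecise and repeats may collect reads of several copies.

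Calls of both strands were added per CpG site and per window of 1000 bp in Python 3.11.15 (pandas 2.3.3, scipy 1.17.1). Scripts were tested on simulated data. The windows, gene lists and named genes were chosen with earlier results of these data known, and named windows were taken from those with the most CpG sites, the highest lower limits, the largest strand differences, the most even spacing, the longest runs, the greatest depth or levels nearest to a threshold. The strands of a window were compared with Fisher's exact test (two-sided), adjusted over all CpG-dense windows. Alternatives changed each threshold, shifted the windows, left out the deepest sites or used 1 sample.

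No genome was used here. The RefSeq gene table of ARS-UCD2.0 gave gene names, lengths and the overlaps of windows with genes and their boundaries, after its positions were checked against the low-methylated windows, in place of a planned comparison of CpG positions. Strand is not in that table, so gene boundaries replaced the planned gene starts.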

Additional observations from a re-analysis of the deposited data

How the results depend on the processing

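The number of methylated windows, 4077, became 10026 at a minimum of 50 CpG sites and 1654 at 70. At 70 sites, the share within 5 Mb of the distal end was 59.674%. The share with a gene boundary was 17.513% when boundaries within 1000 bp counted, beside 60.4% of all CpG-dense windows; boundaries in place of gene starts were chosen after the data were seen. Evenly spaced windows made up 2.6981% at a share of 40% and 1.2264% at 60%, beside 0.672 and 0.300% of all CpG-dense windows. The share whose strands differed, 32.573% as the mean of the samples, was 6.6103% for differences of at least 20 points. By sample, the latter was 0.687% in Bone_1, beside 4.43% of all CpG-dense windows, and 12.5% in Bone_2, beside 5.43%. The share inside a gene was 89.355% for protein-coding genes only, beside 85.4% of all CpG-dense windows. With the threshold of 1 sample left out in turn, the windows numbered 4268 to 4346. Their distal share was 64.036 to 65.042% and their boundary share 5.4124 to 5.7294%. The other values were those of each sample alone over the unchanged 4077 windows. These were a level of 75.429 to 89.217%, a strand share of 32.524 to 32.622% and 5.3835 to 26.177 calls per site. The level of adjoining windows was 71.524 to 87.595%. Other call minimums, thresholds, a shift of the windows and leaving out the deepest sites moved the number of windows by less than 1.5 times.

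No paired analysis was possible because both samples belong to 1 group. The 2 samples, of unstated animals, allow no test of a level between them. Depth limits single CpG sites in Bone_2, of which 10.5% had 10 or more calls.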
